A study of Mus musculus with 5 samples.

Results

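Clone 42 is 1 of 5 clones of mouse cardiac progenitor cells, and its expression is described here against the other 4, clones 1D, 11B, 20B and 30. For each gene the log2 ratio of clone 42 was compared with the median log2 ratio of those 4 clones. Of 18193 named genes on the array, 9435 were measured, meaning that a probe set left the floor of the deposited values and varied between the clones. The other genes stood at the floor or were flat in all 5 clones, so nothing can be said of their order. Each clone was measured on 1 Affymetrix array, so there is no replicate, no test and no p-value, and the number of arrays limits the precision. A difference below may belong to the clone, to its culture or to its 1 RNA preparation, and these cannot be told apart.

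All 5 clones had the same origin. They were derived from left ventricles of adult mice aged 5 to 6 months, of a strain that the labels spell C67BL/6. Cells carrying Sca-1, a surface antigen of many tissue-resident progenitors, were pulled down with antibody-coated magnetic beads, grown out, picked with cloning rings and subcloned by serial dilution. The labels call every clone c-kit+, after the receptor for stem cell factor. No clone carried a transgene or received a treatment in the labels, so clone identity is the only difference they give, and each group is 1 clone. The number of animals behind the clones is not given in the sources used here.

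Cardiac progenitor cultures of this kind are mesenchymal: they make collagens, proteoglycans and other matrix proteins and can carry transcription factors of heart development. Fibrillar collagens form the load-bearing fibres of connective tissue, small proteoglycans such as biglycan bind to them, and matrix metalloproteinases cut them. Hand2 is a basic helix-loop-helix factor of heart formation, best known from the right ventricle and the outflow tract.

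Among the genes below, 8 matrix genes were low in clone 42 and Hand2 was high. A deposited value is a ratio to the median of the 5 arrays or, for dim probe sets, to a floor, so a ratio of 1 is the middle clone and not a level, and levels of different genes cannot be compared. Identical ratios also recur on many probe sets, for a reason that is not known. Clones that share such a ratio are not read as measured equal. The floor was taken as a ratio of 1 for probe sets whose median is below it.

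Clone 42 lay at least 1 log2 unit (2-fold) above the median of the others in 84 of 9435 genes, which is 0.89%. It lay as far below in 93 of the 8645 genes with a probe set scaled to its own median, which is 1.08%. For comparison, the same counts above and below were 86 and 30 in clone 1D, 64 and 76 in clone 11B, 49 and 17 in clone 20B and 118 and 158 in clone 30. Clone 42 thus stood between clone 30 and the remaining clones in its number of low genes. Over all measured genes its median deviation was 0.0036, with 52.6% of genes higher and 47.4% lower. A stricter count took the genes at least 1 log2 unit beyond the nearest other clone. There were 30 such genes above (0.318%) and 29 below (0.335%), and without clone 30 in the comparison the second count was 56.

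The error of a deviation was taken from genes with several measured probe sets. Over 6681 pairs of probe sets of 1 gene, the difference between their clone 42 deviations had a standard deviation of 0.47, that is, about 0.33 log2 units per probe set. The median absolute difference was 0.19. Of the 84 genes above, 52 rested on 1 probe set; in all 32 with more, every measured probe set was higher, and in 12 each was higher by at least 1. Of the 93 genes below, 64 rested on 1 probe set; in 26 of the 29 with more, every probe set was lower, and in 8 each was lower by at least 1. The calls above depend on leaving out flat probe sets: once flat and floor probe sets entered the averages too, 43 genes remained above, against 63 below. Of 68 called genes covered by the naming rule, 25 lost the call in that setting, since they have flat probe sets too: Dcaf7, Flrt2, Tanc2, Slco3a1, Rgs17, Angel2, Arhgef1, Bclaf1, Hdgfl2, Plod2, Itgb1, Flt1, Id2, Sdha and Steap3 among the high ones and Pdlim1, Tomm70a, Ncam1, Csrp1, Angptl4, Spry4, Rfc4, Mgst1, Meis1 and Sema7a among the low ones. With the probe set of largest range in place of the mean, 187 genes were above and 158 below.

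**Figure D1:**
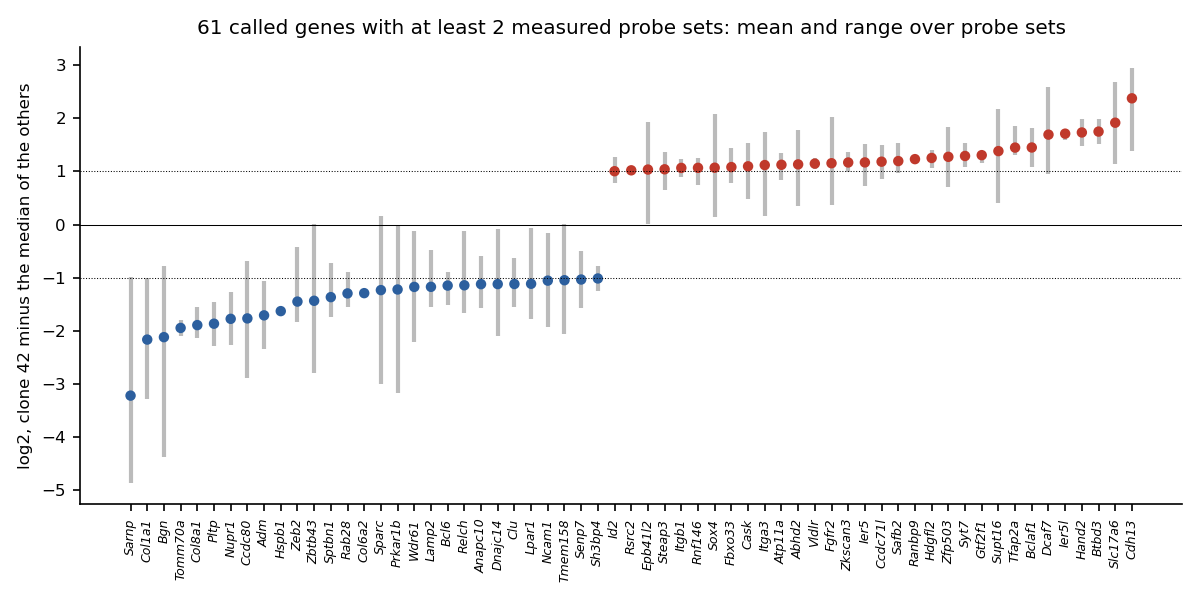
Deviation of clone 42 from the median of the other 4 clones (log2, vertical axis) for the called genes with at least 2 measured probe sets, 32 above and 29 below; points are means over probe sets and grey bars run from the lowest to the highest probe set. The bars of the genes above stay over 0, and those of 3 genes below cross or touch it.

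The genes that set clone 42 apart are introduced by 3 promoters, shown because Col3a1 and Pdlim1 are the first of the low genes with a promoter entry and Hand2 the first of the high genes. Each runs from 250 bases before to 50 bases after the RefSeq start in GRCm38.p6, 5′ to 3′ on the gene's strand. Col3a1 is at chr1:45311288-45311587 on the plus strand, Pdlim1 at chr19:40271567-40271866 on the minus strand and Hand2 at chr8:57320733-57321032 on the plus strand. Capitals mark 3 motifs on either strand: the CCAAT box by its 5 letters, the TATA box as TATAAA, and the GC box, a letter run recognised by Sp1-type factors, as GGGCGG.
Col3a1: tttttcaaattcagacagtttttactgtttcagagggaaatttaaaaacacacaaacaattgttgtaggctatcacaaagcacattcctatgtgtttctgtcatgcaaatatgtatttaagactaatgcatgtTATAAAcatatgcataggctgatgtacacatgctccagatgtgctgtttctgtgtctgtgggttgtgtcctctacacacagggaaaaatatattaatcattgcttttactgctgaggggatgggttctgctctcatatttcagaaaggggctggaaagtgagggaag
Pdlim1: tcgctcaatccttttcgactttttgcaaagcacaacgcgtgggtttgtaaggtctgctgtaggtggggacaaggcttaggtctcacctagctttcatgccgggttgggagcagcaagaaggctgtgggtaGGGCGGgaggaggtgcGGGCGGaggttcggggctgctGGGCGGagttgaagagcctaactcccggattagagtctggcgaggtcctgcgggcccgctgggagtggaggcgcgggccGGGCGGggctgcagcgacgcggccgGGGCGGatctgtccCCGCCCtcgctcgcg
Hand2: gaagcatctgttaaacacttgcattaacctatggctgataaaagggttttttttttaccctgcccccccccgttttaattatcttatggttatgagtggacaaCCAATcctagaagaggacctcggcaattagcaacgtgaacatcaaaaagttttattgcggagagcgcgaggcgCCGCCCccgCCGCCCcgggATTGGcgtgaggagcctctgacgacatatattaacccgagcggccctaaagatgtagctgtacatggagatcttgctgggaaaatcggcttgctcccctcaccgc

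The letters of the 3 promoters differ. Col3a1 held a TATA box and an E-box, searched as CANNTG and known as the letters bound by helix-loop-helix factors such as Hand2. Pdlim1 held the GC box alone of the 4 motifs, and Hand2 held the CCAAT box, the GC box and the E-box. The E-box reads the same on both strands, can share bases with a CCAAT box and is left in lower case. Among the 69 promoters of genes called above, 36.2% held the CCAAT box, 5.8% the TATA box, 71% the GC box and 65.2% the E-box. Among the 79 of genes called below, the shares were 25.3%, 7.59%, 70.9% and 64.6%. For the 7688 promoters of measured genes they were 38.3%, 7.92%, 63.3% and 63.3%, and for all 27025 promoters given by RefSeq they were 37.9%, 14.2%, 35.9% and 72.1%. A match is a run of letters and not a binding site.

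Collagens, proteoglycans and matricellular proteins were low in clone 42. Of 59 such genes on the array 37 were measured; 30 of these (81.1%) were lower and 7 higher than the median of the other clones, against 47.4% lower among all genes. Clone 42 was the lowest of the 5 clones in 20 of the 37 (54.1%), against 22.2% of all genes. At least 1 log2 unit below were 8 genes: Col3a1, Col1a1, Col8a1, Col6a2, Col6a3, Olfml3, Bgn and Sparc. This was 21.6% of the 37, of which 30 had a probe set scaled to its own median. The background of 1.08% counts only genes with such a probe set. None was as far above. The lists were chosen with earlier results of these data known, so these shares are a description and no test. The median of the 37 was only -0.19, and leaving out each other clone gave -0.22 to -0.059, so the group is better described by these 8 genes than by a common shift. In a bulk culture, fewer cells making a transcript and less transcript per cell cannot be told apart.

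Fibrillar collagens come first. Col3a1, the chain of type III collagen, had ratios of 1.18, 1.17, 1.00 and 0.864 in clones 1D, 11B, 20B and 30 and 0.0124 in clone 42. Clone 42 alone was low, 87.2-fold below the median of the others, and no other gene deviated as far in this clone. The value comes from 1 probe set, whose suffix marks probes that match several transcripts. The second probe set of Col3a1 stood at the floor in all clones, at ratios from 0.798 to 0.992, and could not check it. Col1a1, the main chain of type I collagen, had ratios of 1.03, 0.855, 1.03, 1.26 and 0.229, in the order 1D, 11B, 20B, 30 and 42 used from here on. Its probe sets both put clone 42 lowest, by -3.29 and by -1.01 log2 units, so the direction was shared and the size was not. Col1a2, which encodes the partner chain, was at the floor in every clone on 3 probe sets, with ratios from 0.55 to 0.64, and gives no information. Col5a2 and Col5a3, chains of the type V collagen that co-assembles with types I and III, deviated by -0.35 and -0.30, about the spread of 1 probe set. The other 4 measured members, Col5a1, Col2a1, Col24a1 and Col27a1, lay closer to the other clones.

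Among the other collagens the low genes were those of types VI and VIII. Col8a1, a short-chain collagen of vessels and of the heart, had ratios of 0.926, 1.51, 1.64, 0.972 and 0.326, with deviations of -1.55 and -2.14 on its measured probe sets. Col6a2 had ratios of 0.986, 1.56, 0.997, 2.62 and 0.509, and its probe sets gave -1.26 and -1.32. Col6a3 stood at 1.00, 0.986, 1.14, 1.84 and 0.464. The type VI chains, which form beaded microfilaments around cells, were highest in clone 30 and lowest in clone 42. Col6a1, the gene of their partner chain, was below the floor in all clones and was not measured. Col9a1, Col16a1, Col12a1, Col23a1 and Col7a1 deviated by -0.27 to 0.14.

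Proteoglycans and matricellular proteins gave 3 low genes among 21 measured. Bgn, biglycan, had ratios of 0.755, 1.23, 1.00, 1.81 and 0.256, and its 3 probe sets gave -0.78, -1.20 and -4.37. All of them placed clone 42 lowest, but they gave very different sizes. Olfml3, a secreted olfactomedin-like glycoprotein, stood at 1.06, 1.00, 1.04, 0.760 and 0.155 on 1 probe set. Sparc, a collagen-binding matricellular protein, had gene ratios of 1.00, 0.820, 1.26, 1.53 and 0.476, but its probe sets disagreed: they gave -3.003, -0.84 and 0.15, the last with ratios that recur on 883 other probe sets. Ccn4, Tnc, Ccn1 and Fn1, which encode a CCN protein, tenascin C, another CCN protein and fibronectin, deviated by -0.49, -0.38, -0.32 and -0.31. Dcn and Lum, the decorin and lumican genes, were at the floor.

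**Figure D2:**
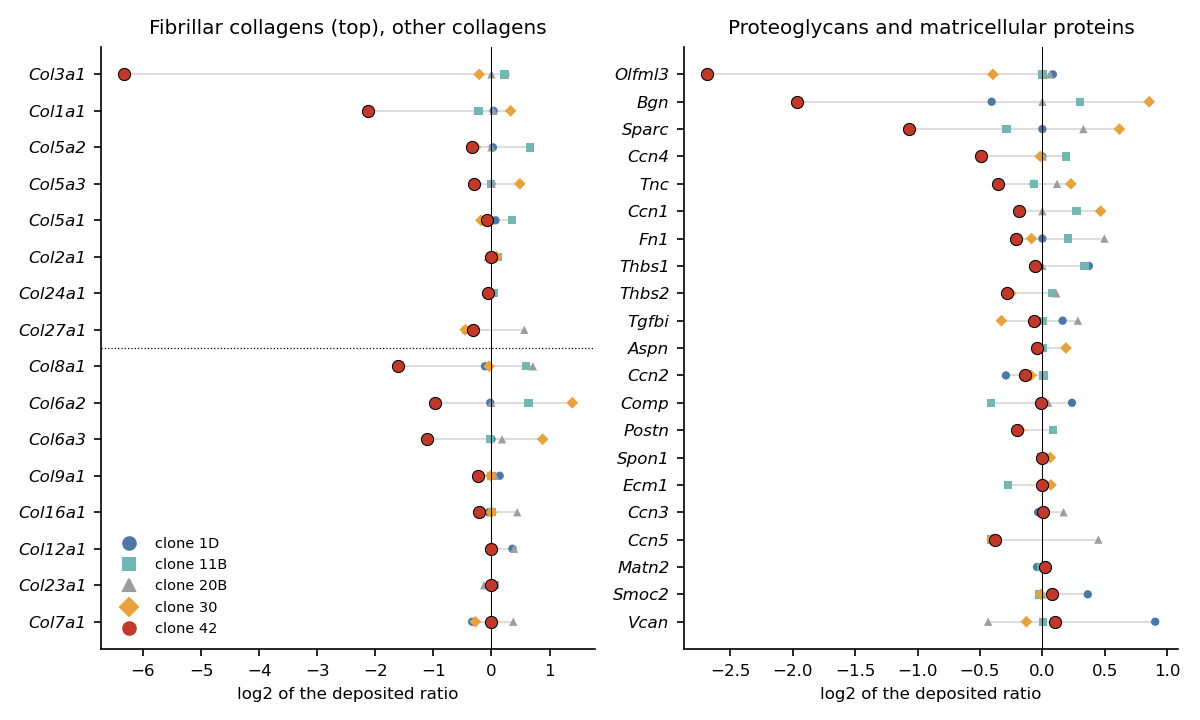
Log2 ratio (horizontal axis) of the 37 measured collagen, proteoglycan and matricellular genes in each of the 5 clones, 1 array each. Red points for clone 42 lie far to the left for Col3a1, Col1a1, Col8a1, Col6a2, Col6a3, Olfml3, Bgn and Sparc and near the other clones for most other genes.

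The matrix genes that were low in clone 42 were often highest in clone 30. This was so for 5 of the 8, against 26 of all 93 genes called below. Among the 15 genes farthest below the nearest other clone, 3 secreted ones outside these lists had the same order, a choice made after their values were seen: Srpx2, a sushi-repeat protein, had ratios of 0.939, 1.00, 1.54, 3.45 and 0.345, Ccdc80 0.883, 1.16, 0.969, 1.80 and 0.312, and Pltp, the phospholipid transfer protein, 1.00, 1.04, 0.768, 1.88 and 0.280. In each of these 3 genes clones 30 and 42 were the extremes. Other secreted genes did not share it: Adm, described below, was low in both clones.

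Genes that process or cross-link collagen went both ways. Of 21 measured, 13 were lower and 8 higher, with a median of -0.03, and clone 42 was the lowest of the 5 clones in 7; whether the list differs from the matrix genes was not tested. Plod2, a lysyl hydroxylase that sets the type of collagen cross-link, was higher by 1.11, with ratios of 1.00, 0.735, 1.54, 0.958 and 2.12. Pcolce2, an enhancer of procollagen C-proteinase, deviated by -1.03. P3h2 and P4ha2, prolyl hydroxylases, deviated by -0.91 and -0.80, and Loxl1, a lysyl oxidase of elastic fibres, by 0.88. Emilin1, an elastic fibre glycoprotein, deviated by -0.94 on average but by -0.0014 and -1.68 on its probe sets.

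Proteases of the matrix and their inhibitors held 1 high gene and no common direction. Of 18 measured 11 were higher and 7 lower, where 52.6% of all genes were higher. Mmp3, stromelysin 1, had ratios of 1.00, 2.18, 0.664, 0.134 and 3.13. Mmp14, the membrane-bound collagenase, stood at 1.13, 0.876, 0.847, 1.00 and 1.70, with all 3 probe sets higher by 0.59 to 0.93. Plat and Plau, the tissue and urokinase plasminogen activators, deviated by 0.65 and 0.72; the other clones were tied in Plau. Timp2 and Timp1, inhibitors of metalloproteinases, deviated by -0.56 and -0.33, and Timp3 by 0.49. Only Mmp3 passed 1 log2 unit, and clone 11B was within 0.52 of it. The list's median was 0.11; it came to 0.022 with values below the floor raised to it and to 0.0072 over the 14 genes left with only probe sets scaled to their own median.

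At the cell surface, the largest deviations were shared with clone 30. Cd81, a tetraspanin, had ratios of 1.00, 1.00, 3.48, 0.048 and 0.0482. Lama5, a laminin chain of basement membranes, stood at 3.16, 1.00, 2.13, 0.116 and 0.151. Its clone 42 deviation of -3.27 came to -1.09 once flat and floor probe sets entered the average. Cdh13, T-cadherin, was high in clones 30 and 42, at 0.925, 0.275, 0.958, 5.52 and 4.89, with clone 42 deviations of 1.39 to 2.95 on 3 probe sets. These 3 genes pair clones 30 and 42 and do not set clone 42 apart. Integrin chains were a different case: Itgb1 had ratios of 1.64, 0.813, 1.00, 0.581 and 1.89 and Itga3 of 0.682, 0.870, 1.13, 0.668 and 1.68. Clone 42 was the highest in both, and clone 30 the lowest. The 3 measured probe sets of Itgb1 gave 0.90 to 1.23 and those of Itga3 0.15 to 1.74. Ncam1, a neural cell adhesion molecule, was lowest in clone 42 with a deviation of -1.06, from -1.93 to -0.16 over its probe sets. Over the 19 measured adhesion genes 9 were higher and 10 lower.

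Hand2 had the largest deviation above among the cardiac transcription factors. Its gene ratios were 0.956, 0.939, 0.965 and 0.952 in clones 1D, 11B, 20B and 30 and 3.17 in clone 42. The other 4 clones lay together and clone 42 stood 3.33-fold above their median. The probe sets gave 1.48 and 1.99 log2 units, and the remaining one was at the floor in all clones. The other clones' ratios on both measured probe sets nearly coincide and recur, in 3 clones each, on 5 other probe sets, so these clones may sit at a shared low value and the fold of clone 42 is uncertain in size.

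Of the 32 cardiac transcription factors on the array 16 were measured, 6 higher and 10 lower, with a median of -0.04, so Hand2 was not part of a shift of the list. Irx5, an Iroquois factor of cardiac repolarisation, was higher by 0.94, with ratios of 0.779, 1.26, 1.00, 0.716 and 1.69. Foxc1, a forkhead factor of mesoderm, deviated by 0.76, at 0.824, 1.00, 1.00, 0.818 and 1.54. Its relative Foxc2 went the other way, by -1.98, with ratios of 0.188, 1.45, 1.00, 2.04 and 0.305; clone 1D was lower still. Mef2c, a myocyte enhancer factor, deviated by -0.56 and Prrx1, a homeobox factor of mesenchyme, by -0.44. Hand1, Gata5, Tbx5, Isl1, Wt1 and 11 others were not measured. Among sarcomere genes 11 of 25 were measured, and Tnnc1, the troponin C of slow and cardiac muscle, was the one beyond 1 log2 unit: its ratios were 2.14, 1.03, 0.896, 1.00 and 0.304. Myh6, the alpha myosin heavy chain, deviated by 0.55.

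The remaining genes farthest above all other clones had no list in common. Prss22, a trypsin-like serine protease, led with ratios of 0.356, 0.959, 1.00, 1.02 and 4.10, which is 4.02-fold over the next clone. Slc17a6, a vesicular glutamate transporter, had ratios of 0.964, 0.865, 0.641, 0.680 and 2.90 and was high on both of its probe sets, by 1.14 and 2.69. Btbd3, a BTB domain protein, stood at 1.13, 0.947, 1.00, 0.595 and 3.27 with 1.52 and 1.98. Each of these was high in clone 42 only. Dcaf7, a WD40 adaptor protein, had deviations of 0.95 and 2.58 on 2 measured probe sets, while 2 further ones were flat. Ier5l, an immediate early response gene, gave 1.597 and 1.71 on its pair. Irx2, a relative of Irx5, had ratios of 1.00, 0.368, 0.998, 1.05 and 2.55 on 1 probe set. Dusp14, a phosphatase of MAP kinases, Tanc2, a synaptic scaffold, Syt7, a calcium sensor of exocytosis, Slco3a1, an organic anion transporter, Rgs17, a regulator of G protein signalling, and Arhgef1 deviated by 1.27 to 1.70. For Flrt2 and Angel2 the other 4 clones were tied below the floor, and with values below the floor raised to it neither gene was called. Tfap2a, the AP-2 alpha factor of neural crest, was called on all 3 of its probe sets, at 1.31 to 1.85.

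The remaining low genes had varied roles. Aldh3a1, an aldehyde dehydrogenase, had ratios of 0.973, 1.03, 1.00, 4.29 and 0.0889, so clones 30 and 42 lay on opposite sides of 3 near-equal clones. Pdlim1, a LIM domain adaptor of actin fibres, stood at 1.00, 1.05, 1.00, 0.989 and 0.125, but the values of 3 other clones recur on 883 probe sets. Npr2, a receptor of C-type natriuretic peptide, had 3 tied clones near 1, 1.26 in clone 30 and 0.274 in clone 42. Rcn3, a calcium-binding protein of the endoplasmic reticulum, was 3.48-fold below the median and Pigp, of the GPI anchor pathway, 3.47-fold. Fam25c stood at 1.00, 0.998, 1.90, 2.22 and 0.316. Low on each of 2 probe sets but not alone were Nupr1, a stress-induced nuclear protein also low in clone 11B (0.352 and 0.362 in 11B and 42), Hspb1, a small heat shock protein with the same pairing (0.401 and 0.347), and Adm, adrenomedullin, shared with clone 30 (0.459 and 0.461).

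**Figure D3:**
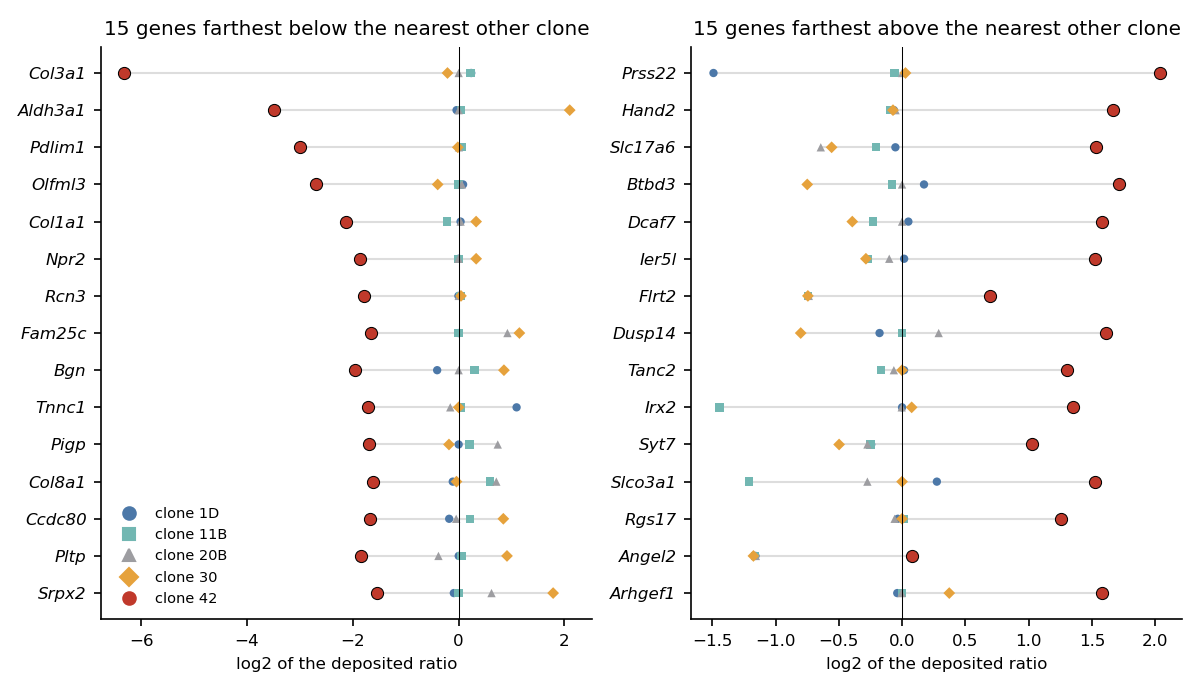
Log2 ratio (horizontal axis) in the 5 clones for the 15 genes in which clone 42 lay farthest below (left) and farthest above (right) the nearest other clone, in order of that gap; the 2 panels have different scales. Points of clone 42 are large and red, from -6.33 in Col3a1 to 2.04 in Prss22.

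Most called genes had another clone close by in both directions. Of the 93 genes below, 64 had another clone within 1 log2 unit, and for 38 of these clone 30 was among them. Of the 84 genes above, 54 had such a clone, with clone 1D among them in 26 and clone 30 in 25. With only 1D, 11B and 20B as the reference, 83 genes were above and 106 below in clone 42 and 128 and 181 in clone 30. Both clones share those 3 controls. Without clone 30, several genes named here came under 1 log2 unit: Col6a2 (-0.97), Pcolce2 (-0.997), Itga3 (0.94), Itgb1 (0.92), Ncam1 (-0.97), Smad6 (-0.99) and Meis1 (-0.72). Without clone 11B the same held for Col6a2 (-0.97), Itgb1 (0.92), Ncam1 (-0.97), Smad6 (-0.99), Meis1 (-0.72), Id2 (0.86), Hes1 (0.98) and Mgst1 (-0.97). Without clone 1D it held for Itga3 (0.94) and Id2 (0.86), and without clone 20B for Pcolce2 (-0.997), Hes1 (0.98) and Mgst1 (-0.97). Against 1D, 11B and 20B, clones 30 and 42 were both at least 1 log2 unit below in 32 genes and above in 10. They were on opposite sides in 11. Mmp3, Cask and Trp53bp2 were high in clone 42 and low in clone 30, and Aldh3a1, Srpx2, Sarnp, Fam25c, Zfp385a, Clu, Foxc2 and Nupr1 were the reverse. Of the 32 genes low in both, 12 lie on chromosome 16.

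Position along the genome was described by gene order in RefSeq GRCm38.p6. Chromosome 16 held 22 low genes among 287 with a probe set scaled to its own median (7.67%), and all other such genes together had 71 of 8358 (0.849%). Of the 22, 15 were within 1 log2 unit of clone 30, which had 19 low genes on this chromosome, and 5 were at least 1 log2 unit below all other clones. Neighbouring measured genes were low together in Psmd2, Clcn2 and Polr2h, in Eif4a2 and Rfc4 and in Senp7, Tfg and Tomm70a. Over windows of 15 successive genes, that from Camk2n2 to Eif4a2 had the lowest median of 9137 windows in clone 42, -0.85, against -0.39 in clone 30; percentiles 1 and 99 over all windows were -0.25 and 0.32. Low windows also lay on chromosome 1, from Tmem183a to Tmem9 (-0.52) and from Arpc2 to Retreg2 (-0.50). Clone 30 had -0.17 and -0.52 there. Another was on chromosome 8, from Gab1 to Prkaca, at -0.44 against 0.06 in clone 30. Col8a1 lies in a second low stretch of chromosome 16, in a window at -0.43 against -0.60 in clone 30. Among the genes before it Filip1l, Tbc1d23, Tomm70a, which encodes a mitochondrial import receptor, and Tfg deviated by -0.94, -0.77, -1.95 and -1.71. Nit2 and Cmss1 between them were at -0.25 each. In clone 30 Filip1l, Tbc1d23 and Tomm70a were low too, at -1.08, -0.78 and -1.52 from the median of its other clones, but Col8a1 was at -0.28. Dcbld2, directly after Col8a1, deviated by -0.91 in clone 42, and Cldnd1, the next gene, by 0.06. Around Col3a1 on chromosome 1 the 10 flanking measured genes had a median of 0.06, with 5 higher and 5 lower; Col5a2, its direct neighbour, was at -0.35.

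On chromosome 13, 13 of 349 genes were above (3.72%, against 0.89% of all genes) and 0 below; clones 1D and 30 had 9 and 8 genes above there. The window with the highest median in clone 42 was on chromosome 17, from Micos13 to Gpr108, at 0.69, and clone 30 had 0.62 there. On chromosome 13 the window from Zfp874a to Lpcat1, which holds Irx2, had a median of 0.53 (0.14 in clone 30). That from Mplkip to H2bc22 had 0.51. Chromosome 10 had windows from Aig1 to Myb at 0.52 and from Slc2a12 to Tpd52l1 at 0.47, against 0.08 and 0.22 in clone 30. On chromosome 14, 68.9% of genes were higher, with a median of 0.07. Hand2, on chromosome 8, also lay among high genes: Sap30 at 0.94, Hmgb2 at 0.61 and Galnt7 at 0.39 follow it, 9 of its 10 flanking genes were higher, and their median was 0.28. None of these neighbours passed 1 log2 unit, so Hand2 exceeded its surroundings. Prss22 on chromosome 17 had 9 of 10 flanking genes higher, with a median of 0.30. Dcaf7 and Tanc2, both among the 15 highest, lie near each other on chromosome 11. The part of gene position in any of these values was not tested.

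**Figure D4:**
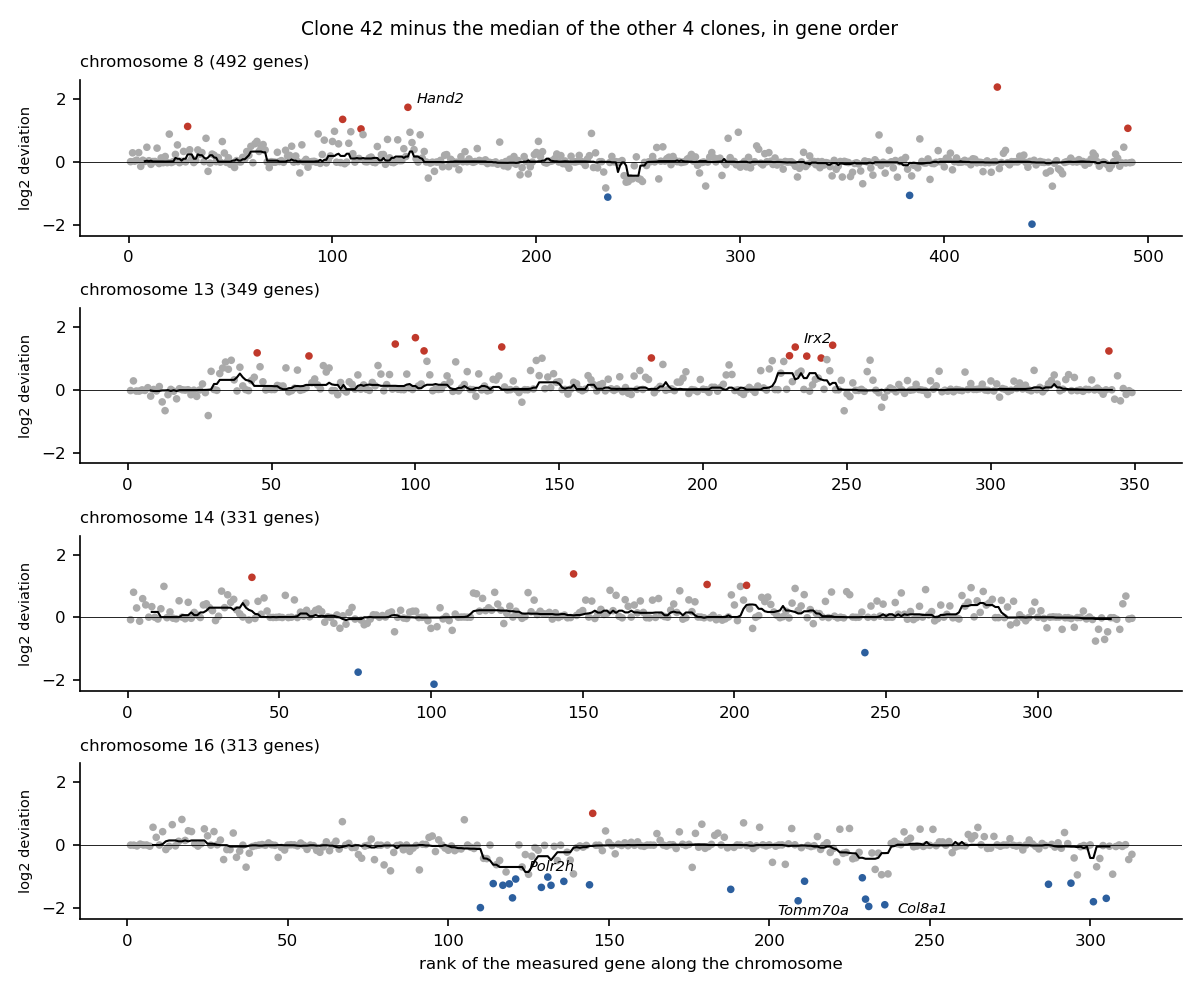
Deviation of clone 42 from the median of the others (log2, vertical axis) for measured genes in their order along chromosomes 8, 13, 14 and 16; red and blue points lie at least 1 above or below, and the black line is the median of 15 genes. Blue points group on chromosome 16 and red points are spread over chromosome 13, while Hand2 stands over its neighbours on chromosome 8.

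Lists outside the matrix mostly centred near 0. Of 36 measured cytosolic ribosomal protein genes, 28 were higher in clone 42 and 8 lower (52.6% of all genes were higher), with a median of 0.15, and none passed 1 log2 unit; Rplp0, Rps3 and Rpl6 led at 0.73, 0.69 and 0.63. Among 34 aldehyde dehydrogenases and targets of NRF2, the regulator of antioxidant genes, 23 were lower and 11 higher. Besides Aldh3a1, Gpx1, a glutathione peroxidase (1.00, 0.991, 1.46, 1.16 and 0.485), Nqo1, a quinone reductase (1.08, 1.00, 1.18, 0.275 and 0.497), and Mgst1, a microsomal glutathione transferase (1.00, 1.05, 1.17, 0.989 and 0.511), were low. Clone 30 was lower still in Nqo1. Wnt pathway genes were higher in 15 of 21, with a median of 0.09. The receptors Fzd2 and Fzd5 and the inhibitor Nkd1 led at 0.77, 0.75 and 0.75. Fzd2 was shared with clone 30: against clones 1D, 11B and 20B it was at 1.05 in clone 42 and 1.12 in clone 30. In the Notch pathway 8 of 10 were higher, and its target Hes1 reached 1.01, with ratios of 1.00, 0.317, 0.955, 1.21 and 1.97. Homeobox genes were higher in 15 of 20: Hoxc9 at 0.98 and Hoxd8 at 0.80 led, with other clones tied in both, and Meis1, a cofactor of Hox proteins, deviated by -1.17. In the TGF-beta and BMP pathway 22 of 37 were higher; Id2, a target of BMP signalling, stood at 1.00 and Smad6, an inhibitor of that pathway, at -1.20. The medians of Wnt, Notch, homeobox and ribosomal lists shrank to 0.0069, 0.0075, 0.0059 and 0.074 with no filter on probe sets. The homeobox median also came to 0.016 without clone 20B and to 0.0091 without clone 30.

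**Figure D5:**
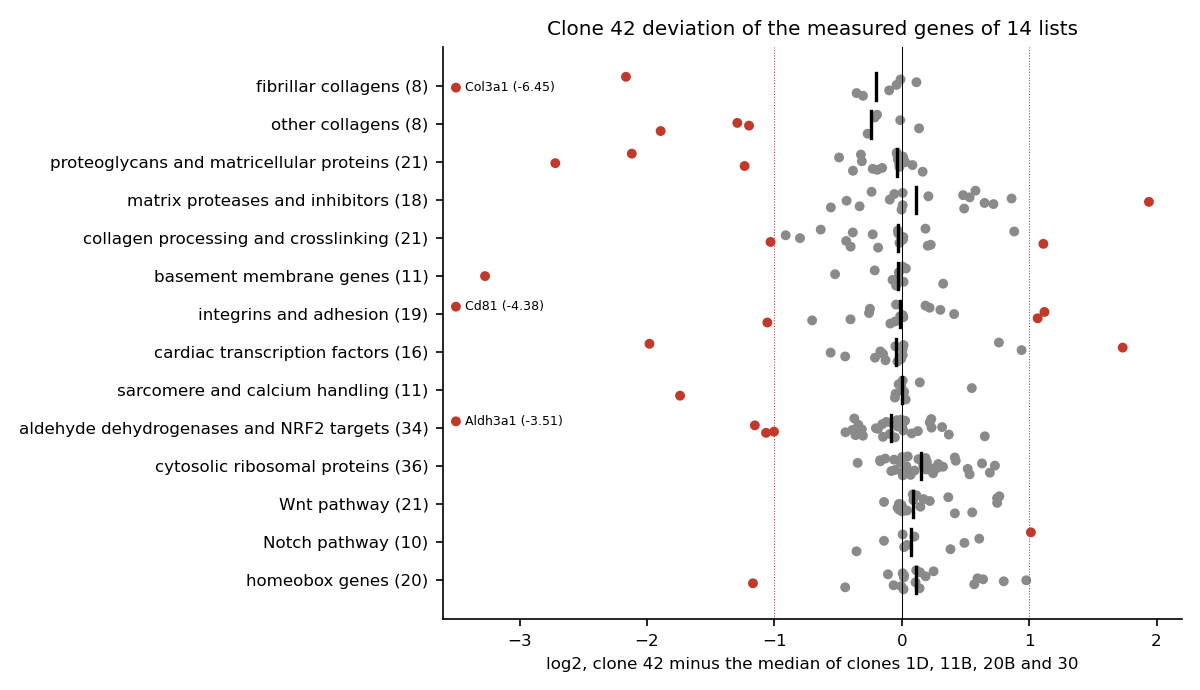
Deviation of clone 42 (log2, horizontal axis) for the measured genes of 14 lists, with the number of genes in parentheses; each point is a gene, red at 1 log2 unit or more, black bars are medians, and genes beyond the left edge are written with their value. The red points to the left in the 3 upper lists are the low matrix genes, while the medians of all lists shown lie between -0.24 and 0.15.

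The genes that name these cells and the markers of other cell types were checked in clone 42. Kit was on 1 measured probe set at a ratio of 0.997 in clone 42, with ties in the other clones, Pou5f1 and Cxcr4 were at the floor, and Ly6a, which encodes Sca-1, had no probe set with a single gene symbol. Cxcl12, the SDF-1 chemokine, deviated by 0.05 and Ackr3, its scavenging receptor, by -0.25. Of 18 endothelial markers 2 were measured. Eng deviated by 0.0087, and Flt1, a VEGF receptor, was higher by 1.06 on 1 of 4 probe sets. Pecam1, Cdh5, Kdr and Tek were not measured. Of 17 leukocyte markers 5 were measured, at -0.12 to 0.01. The 1 measured pericyte marker of 9 lay at 0.0051, and the smooth muscle and fibroblast lists had medians of -0.03 and 0.01; within the last Pdgfra, a PDGF receptor, stood at 0.99 and Vim, vimentin, at -0.74. Epicardial and mesothelial markers had 5 of 15 measured, from -0.31 to 0.04, and neural markers 8 of 16, with Slc17a6 alone beyond 1. Ratios cannot show whether a marker is absent.

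Array controls of clone 42 stood near the others in some sets and apart in others. The 18S rRNA 5′ and middle probe sets had ratios of 0.651 and 0.659 in clone 42. They were lower still in clone 11B, at 0.411 and 0.478, and at 1 or more in the other clones. Pyruvate carboxylase was lowest in clone 42 on its 3′ probe set only, at 0.507. The 18 hybridization controls had a median log2 ratio of -0.06 in clone 42. The 5′ to 3′ ratio was formed from the deposited ratios, so it is relative to the other arrays. It does not show RNA integrity in itself. In clone 42 it was 1.08 for both Actb and Gapdh. In clones 1D, 11B, 20B and 30 it was 1.08, 0.60, 1.00 and 0.74 for Actb. For Gapdh it was 1.16, 0.92, 1.03 and 1.00 in the same order. The 27 spiked poly-A controls, which are added to the RNA before labelling, had a median of -0.37 in clone 42, against -0.20 in clone 1D, 0 in clone 11B, 0.0043 in clone 20B and 0.28 in clone 30. The part of any of these controls in the differences was not tested. After quantile normalization 69 genes were above and 93 below, and 91 of the latter were the same genes as before.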

How the data were processed

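RNA of 5 clones was measured on 1 Affymetrix array each. The authors' deposited values are ratios on a linear scale, as read from the values themselves: a probe set was scaled to the middle of its 5 arrays, or to a floor where that was dim. The submitters' processing notes list RMA and GCRMA with no role or version; how the ratio was formed is not given in the sources used here. Probe sets were named from the platform annotation, with symbols updated by gene ID to RefSeq GRCm38.p6 (34754 of 34958 with 1 symbol matched; 932 had several and 9211 none), and 64 controls were left out. A probe set was measured if its median was 1 or a clone exceeded 1, and if its log2 range exceeded 0.05. A gene's value is the mean log2 ratio over them. Tied means within 0.02 log2 units. Calculations used Python 3.11.15, pandas 2.3.3 and numpy 2.4.6 and were tested on simulated data. Named genes were the 15 farthest above and below the nearest other clone, up to 10 per direction called on each of at least 2 probe sets, up to 6 members of each described list with the largest deviation, the members of the collagen, proteoglycan and cardiac factor lists, and Cxcl12, Cxcr4, Ackr3, Kit, Ly6a and Pou5f1. The members and lists were chosen with earlier results of these data known, and the gene-order windows after seeing the data. Genes outside this rule, such as those of runs or opposite calls, were named after their values were seen. Alternatives were other probe set rules, normalizations, floors and references, and leaving out each other clone.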

Additional observations from a re-analysis of the deposited data

How the results depend on the processing

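The counts of called genes kept within 1.5 times in most of 13 other settings. Exceptions were the following. With flat and floor probe sets averaged in, 43 genes were above the median of the others and 15 above all others, and the same 43 and 15 were obtained with no filter on probe sets, since flat probe sets dilute the mean. With the probe set of largest range, 187 genes were above and 158 below the median, and 56 above and 59 below all others. Leaving out each other clone gave 82 to 113 genes above and 95 to 107 below the median, and 32 to 43 above and 30 to 56 below all others, the last without clone 30. The median of the 37 collagen, proteoglycan and matricellular genes, -0.19, came to -0.077 with flat and floor probe sets averaged in, -0.078 with the probe set of largest range and -0.094 with values below the floor raised to it. It was -0.088 over the 26 genes left without probe sets marked for several targets, and -0.0097 over all 59 genes on the array without a filter, where 22 floor or flat genes enter; leaving out each other clone gave -0.22 to -0.059. It was below 0 in each of these settings. Of 68 named genes called, 31 were measured and kept the call in each of the 13 settings and none changed direction. Col3a1, Hspb1 and others with marked probe sets could not be measured without them, 14 genes in all. Quantile normalization ended the call of Id2, Hes1 and Mgst1, and the mean of the others that of Rfc4 and Nqo1. No paired analysis was possible because each clone had 1 array. What signal over background limits cannot be stated, since ratios hold no background.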

Other observations

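Single genes of other lists stood apart in clone 42. The counts of lower genes per list stand beside 47.4% lower among all measured genes. Ccl2, a monocyte chemokine, had ratios of 1.03, 0.639, 1.00, 1.24 and 0.279 in clones 1D, 11B, 20B, 30 and 42 and was the lowest of 12 measured chemokines and cytokines, 8 of which were lower. Pparg, the nuclear receptor of fat cells, had ratios of 1.11, 0.752, 1.40, 1.00 and 0.309, and Cd36, a fatty acid transporter, deviated by -0.88; 6 of 11 measured adipogenic genes were lower. Sema7a, a membrane-anchored semaphorin, deviated by -1.86 and led 17 lower genes among 27 of axon guidance. Angptl4, a secreted inhibitor of lipoprotein lipase, deviated by -1.18 and was the second after Adm among 18 angiogenic genes, 11 of them lower. Spry4, a feedback inhibitor of ERK signalling, stood at -1.11, while Dusp1 and Egr2 stood at 0.63 and 0.51. With flat and floor probe sets averaged in, Sema7a, Angptl4 and Spry4 came to -0.94, -0.59 and -0.27 and were no longer called, while Ccl2 and Pparg kept -1.86 and -1.77.

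Genes of basic cell functions were mostly close to the other clones. Of 26 measured DNA replication genes 18 were higher, with Mcm7, a helicase subunit, at 0.75 on 4 probe sets that gave 0.64 to 0.98; Rfc4, a clamp loader subunit on chromosome 16, deviated by -1.28. Mitosis genes were 12 higher and 12 lower. Of 24 genes of the unfolded protein and integrated stress responses 17 were higher, led by Psat1 at 0.73 and Dnajb9 at 0.69. Of 21 hypoxia and glycolysis genes 15 were higher, led by Ero1a at 0.78, where 52.6% of all genes were higher. The largest deviation of that list was below, -1.71 in Adm. Among 55 respiratory chain genes 26 were higher and 29 lower; Sdha, a subunit of succinate dehydrogenase, had ratios of 1.00, 0.793, 0.697, 1.73 and 2.37 and Cox7a2, a subunit of cytochrome oxidase, deviated by -0.92. With flat and floor probe sets averaged in, Sdha came to 0.46 and Rfc4 to -0.65. None of these lists had more than 1 gene beyond 1 log2 unit in either direction.

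Of 1795 measured probe sets with no gene symbol, 10 lay at least 1 log2 unit above and 10 below the median of the other clones, with extremes of 2.43 and -4.25. Among named genes, counted per gene, the calls were 84 of 9435 above (0.89%) and 93 of 8645 below (1.08%). What the unnamed probe sets measure is not analysed here.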
